A study of Oryza sativa with 2 samples.

Results

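Aquaporins of the plasma membrane and of the tonoplast, the membrane around the vacuole, were examined in rice leaf RNA-seq. The 10 genes were taken by locus ID from a fixed list, and each ID was found in exactly 1 entry of the deposited table, which has 42152 entries for 41981 locus IDs. The list was not made by a rule on measured values, but earlier results of these data were known when it was chosen. They comprise 7 plasma membrane intrinsic proteins, 3 of the PIP1 group and 4 of the PIP2 group, and 3 tonoplast intrinsic proteins (TIP). FPKM is the number of sequenced fragments divided by the transcript length and by the mapped fragments of the library. A mean FPKM of 1 or more over both libraries was required for a comparison, and 9 of the 10 genes reached it.

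The *yl-1* mutant, a yellow-leaf plant from an EMS mutant library of the *indica* cultivar Zhongjiazao 17, was compared with the wild-type cultivar. The mutation is a base change in the coding region of *YL-1*, which encodes a subunit of a chlorophyll synthesis enzyme, and further EMS changes in the mutant cannot be told apart from it here. Seedlings of both genotypes were kept at 26°C with 12 h of light at 300 μmol m−2 s−1. There was 1 leaf library of each genotype, so no error between plants can be given and no test was possible. The RNA came from leaves as a whole, so fewer cells of a type and less RNA per cell cannot be told apart.

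The genotype names of the columns are in doubt. The study has a supplementary list of 24 selected loci, and none of the aquaporins is on it. For 18 of these loci, the numbers headed *yl-1* there match the wild-type column of the deposited table within 0.0051 FPKM, and for 0 loci they match the *yl-1* column. The remaining numbers headed *yl-1* match neither column. The numbers headed wild-type match the deposited *yl-1* column for 23 loci and the wild-type column for 0. An exchange of headings alone therefore does not account for the whole list. Directions below follow the deposited names, which is why the libraries are called *yl-1*-labelled and wild-type-labelled, and every direction turns round if the names are exchanged. Which names are right was not determined here. The transcript of the mutated gene, *YL-1* (LOC_Os01g17170), stood at 1124 FPKM in the *yl-1*-labelled library and at 671 FPKM in the wild-type-labelled library. It is itself on the study's list, marked there as down-regulated in *yl-1*, so it adds no separate check of the names. All FPKM values summed to 823855 in the *yl-1*-labelled library and to 738866 in the wild-type-labelled library, and the number of fragments behind them is unknown. From the study's list, 5 leaf genes of photosynthesis or chlorophyll synthesis were taken, all marked there as down-regulated in *yl-1*. The most abundant of these, *PsbO*, was at 5206 FPKM in the *yl-1*-labelled library and 3824 FPKM in the wild-type-labelled library.

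Aquaporins are membrane channels that let water, and in some cases other small uncharged molecules, pass along a gradient. Proteins of the PIP2 group are efficient water channels of the plasma membrane, while PIP1 proteins often need a PIP2 partner to reach that membrane. TIP proteins carry water across the tonoplast and so between the cytosol and the vacuole. In leaves these channels take part in the movement of water from the veins into the mesophyll.

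Of the 9 compared aquaporins, 7 differed by less than 2-fold between the libraries, and 2 plasma membrane genes parted in opposite directions. Transcripts of PIP1;3 (LOC_Os02g57720) were 2.60 times as high in the *yl-1*-labelled library, whereas those of PIP2;7 (LOC_Os09g36930) reached 0.353 of their level in the wild-type-labelled library. Differences are given as log2((FPKM + 1) ratio) of the *yl-1*-labelled library over the wild-type-labelled library, and 6 of the 9 genes lay within 0.2 of zero, where 43.3% of all 14559 compared entries lay. With the FPKM sums of both libraries made equal, 5 of the 9 genes and 41.2% of the entries did. In the *yl-1*-labelled library 7 of the 9 were higher, where 51.7% of all compared entries were, and 2 were lower, where 48.3% were. The median was 0.089 over the aquaporins, beside 0.014 over all compared entries. Past 2-fold, 1 gene was higher, beside 2.5% of all compared entries, and 1 was lower, beside 3.65%. With 9 genes, these counts show nothing particular to aquaporins.

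**Figure D1:**
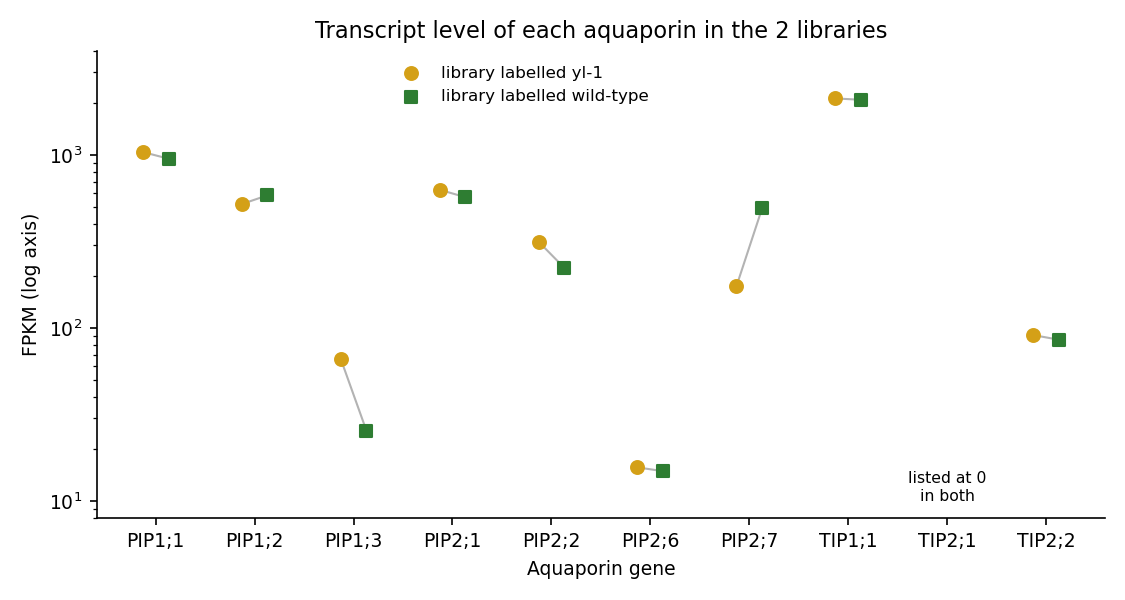
FPKM of each aquaporin gene on a log axis, with circles for the yl-1-labelled library and squares for the wild-type-labelled library (1 library each, no error bars). The pairs furthest apart are those of the third PIP1 gene, at 66.4 and 25.5 FPKM, and the last PIP2 gene, at 174 and 493 FPKM. A single TIP gene is listed at 0 in both.

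Among the PIP1 genes, PIP1;1 (LOC_Os02g44630) was the most abundant. RefSeq also lists the name RWC1 for it. It had 1040 FPKM in the *yl-1*-labelled library and 951 FPKM in the wild-type-labelled library, a log2 ratio of 0.13. Ranked among all entries by level, it took place 98 in the *yl-1*-labelled library and place 103 in the wild-type-labelled library, so it is an abundant leaf transcript in both.

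PIP1;2 (LOC_Os04g47220) was the next of its group and one of only 2 aquaporins that stood lower in the *yl-1*-labelled library. It had 520 FPKM there and 584 FPKM in the wild-type-labelled library, a log2 ratio of -0.17. This gene and the preceding one together made up nearly all transcripts of the 3 PIP1 genes, the preceding one holding 63.9% of them in the *yl-1*-labelled library and 60.9% in the wild-type-labelled library.

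The scarce gene of the group, PIP1;3, for which RefSeq also lists the name RWC3, showed the strongest difference upward. It had 66.4 FPKM in the *yl-1*-labelled library and 25.5 FPKM in the wild-type-labelled library, with a log2 ratio of 1.35. By level it took place 1335 among all entries in the *yl-1*-labelled library and place 3088 in the wild-type-labelled library. Of the 14559 compared entries, 194 had a ratio as high or higher (1.33%). Of the 5100 entries with a mean from 10 to under 100 FPKM, where this gene lies, 37 had (0.725%). Its share of the PIP1 transcripts was 4.08% in the *yl-1*-labelled library and 1.64% in the wild-type-labelled library. The leading gene of the group was still 15.7 times as abundant in the *yl-1*-labelled library and 37.2 times in the wild-type-labelled library.

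The PIP2 group held the strongest difference downward. PIP2;7 had 174 FPKM in the *yl-1*-labelled library and 493 FPKM in the wild-type-labelled library, a log2 ratio of -1.50. By level it took place 563 among all entries in the *yl-1*-labelled library and place 198 in the wild-type-labelled library. A ratio this low or lower was found in 215 of all compared entries (1.48%), and in 6 of the 945 entries with a mean of 100 FPKM or more (0.635%). Its share of the PIP2 transcripts was 15.3% in the *yl-1*-labelled library and 37.9% in the wild-type-labelled library. Such shares are taken within a library and do not depend on how the libraries are scaled. They are tied to each other, so a lower level of PIP2;7 by itself raises the shares of the other PIP2 genes.

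The other PIP2 genes did not follow it. PIP2;1 (LOC_Os07g26690), the leading gene of the group, had 629 FPKM in the *yl-1*-labelled library and 570 FPKM in the wild-type-labelled library, a log2 ratio of 0.14. It held 55.5% of the PIP2 transcripts in the *yl-1*-labelled library and 43.8% in the wild-type-labelled library.

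PIP2;2 (LOC_Os02g41860) stood higher, with 315 FPKM in the *yl-1*-labelled library and 223 FPKM in the wild-type-labelled library. Its log2 ratio was 0.50, and 1463 of all compared entries had a ratio as high or higher. Its share of the PIP2 transcripts was 27.8% in the *yl-1*-labelled library and 17.1% in the wild-type-labelled library. The order within the group therefore differed, since PIP2;7 stood at 0.552 of the level of this gene in the *yl-1*-labelled library and at 2.21 times its level in the wild-type-labelled library. PIP2;6 (LOC_Os04g16450) was scarce in both, with 15.7 FPKM in the *yl-1*-labelled library and 14.9 FPKM in the wild-type-labelled library (log2 ratio 0.069).

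**Figure D2:**
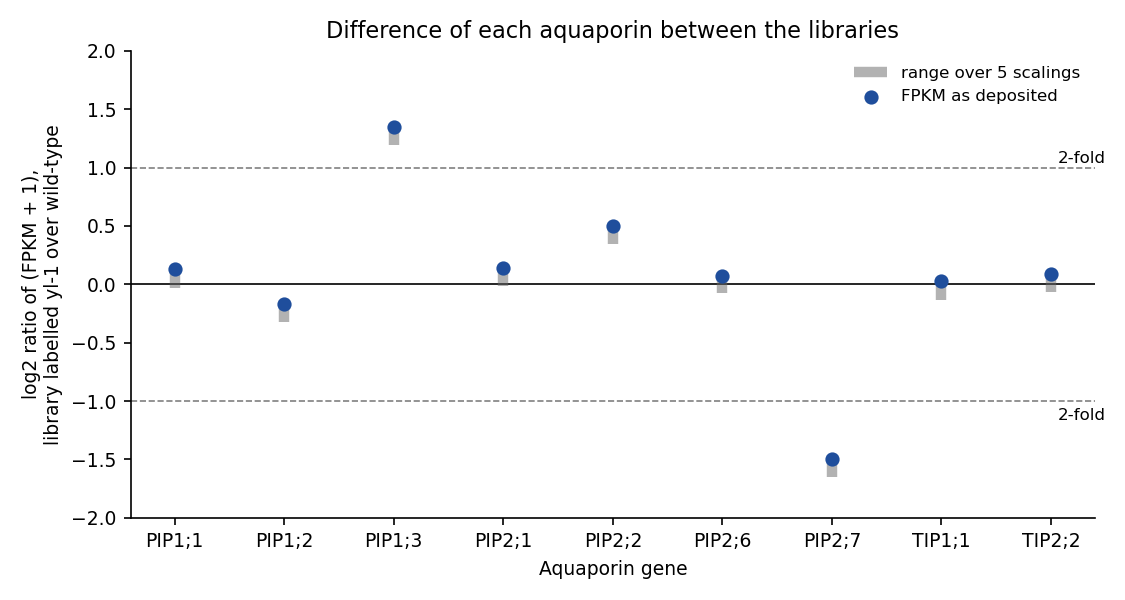
log2 ratio of (FPKM + 1) of the 9 compared aquaporins, the yl-1-labelled library over the wild-type-labelled library, with points for the FPKM as deposited, grey bars for the range over 5 scalings and dashed lines at 2-fold. Only the genes at 1.35 and -1.50 lie outside the dashed lines, and they do so under each of the 5 scalings.

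Of the 3 tonoplast genes, 1 held most of the transcripts. TIP1;1 (LOC_Os03g05290) was the most abundant of the 10 genes, with 2121 FPKM in the *yl-1*-labelled library and 2083 FPKM in the wild-type-labelled library (log2 ratio 0.026). By level it took place 49 among all entries in the *yl-1*-labelled library and place 42 in the wild-type-labelled library. It held 95.9% of the transcripts of the 3 TIP genes in the *yl-1*-labelled library and 96.1% in the wild-type-labelled library. With the 7 further TIP loci described below counted in, it held 75.4% in the *yl-1*-labelled library and 82.0% in the wild-type-labelled library.

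TIP2;2 (LOC_Os06g22960) had 91.0 FPKM in the *yl-1*-labelled library and 85.5 FPKM in the wild-type-labelled library (log2 ratio 0.089). TIP2;1 (LOC_Os02g44080) was listed at 0 in both libraries, as were 48.5% of all entries, and gives no ratio. The tonoplast genes that could be compared thus lay among the 6 aquaporins within 0.2 of zero.

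The sum over the 10 genes was 4973 FPKM in the *yl-1*-labelled library and 5029 FPKM in the wild-type-labelled library, a ratio of 0.989, or 0.887 with the FPKM sums of both libraries made equal. The PIP1 genes together had 1626 FPKM in the *yl-1*-labelled library and 1561 FPKM in the wild-type-labelled library. The PIP2 genes together had 1135 FPKM in the *yl-1*-labelled library and 1300 FPKM in the wild-type-labelled library. This difference of -165 FPKM is smaller in size than the -318 FPKM of PIP2;7 alone, because the first and second PIP2 genes were higher by 59.5 and 92.8 FPKM. Without it, the PIP genes summed to 2587 FPKM in the *yl-1*-labelled library and 2368 FPKM in the wild-type-labelled library.

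The groups were also set against each other on the FPKM scale. PIP2 transcripts stood at 0.698 of PIP1 transcripts in the *yl-1*-labelled library and at 0.833 in the wild-type-labelled library. TIP transcripts stood at 0.801 of PIP transcripts in the *yl-1*-labelled library and at 0.758 in the wild-type-labelled library. The 10 genes took 0.604% of the FPKM sum of the *yl-1*-labelled library and 0.681% of that of the wild-type-labelled library.

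**Figure D3:**
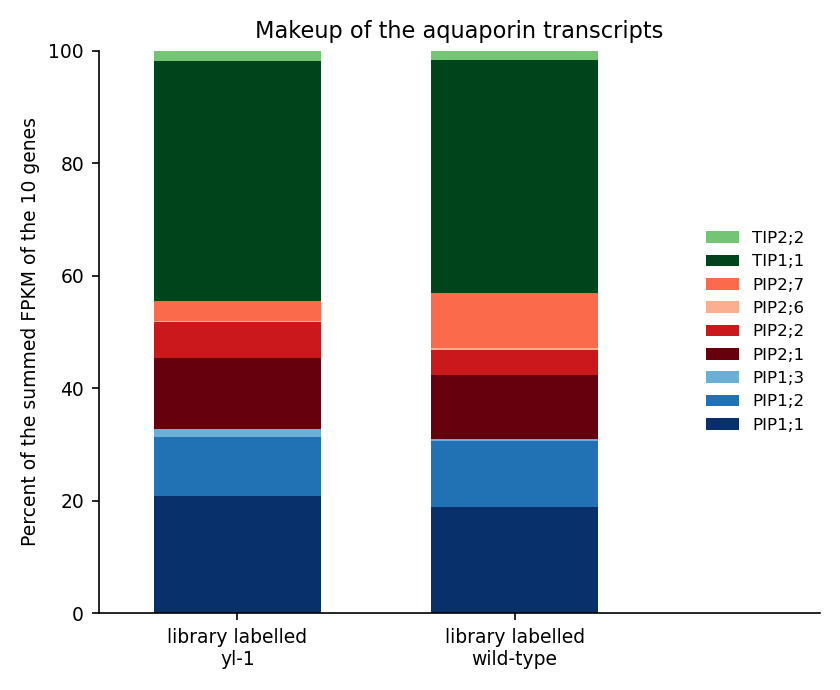
Percent of the summed FPKM of the 10 genes taken by each gene, in the yl-1-labelled library (left bar) and the wild-type-labelled library (right bar). The main tonoplast gene takes 42.7% and 41.4%, while PIP2;7 takes 3.50% and 9.79%.

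The order of the genes by level was the same in both libraries at the top and at the bottom. TIP1;1 came first and PIP1;1 second, and the last 4 places went to TIP2;2, PIP1;3, PIP2;6 and TIP2;1, in that order. In between, PIP2;1 stood above PIP1;2 in the *yl-1*-labelled library and below it in the wild-type-labelled library, and PIP2;2 and PIP2;7 exchanged places. Without replicates, no spread can be set beside these neighbouring places.

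The small differences depend on the scaling, though only the scaling to equal FPKM sums turned a sign. With the FPKM sums of both libraries made equal, the median of all compared entries moved to -0.12, and 2 aquaporins were higher and 7 lower in the *yl-1*-labelled library. The sign turned for 5 genes, PIP1;1 (-0.028), PIP2;1 (-0.014), PIP2;6 (-0.078), TIP1;1 (-0.13) and TIP2;2 (-0.066). The other 4 compared genes kept 1 sign under all 5 scalings. Setting the median of the compared entries to 0 or making the upper quartiles equal left every sign as deposited. So did equal sums without the 100 most abundant entries. The factor on the *yl-1*-labelled library was 0.897 with all entries in the sums and 0.989 without those 100. PIP1;3 ranged from 1.19 to 1.36 and PIP2;7 from -1.65 to -1.48, so both stayed past 2-fold.

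**Figure D4:**
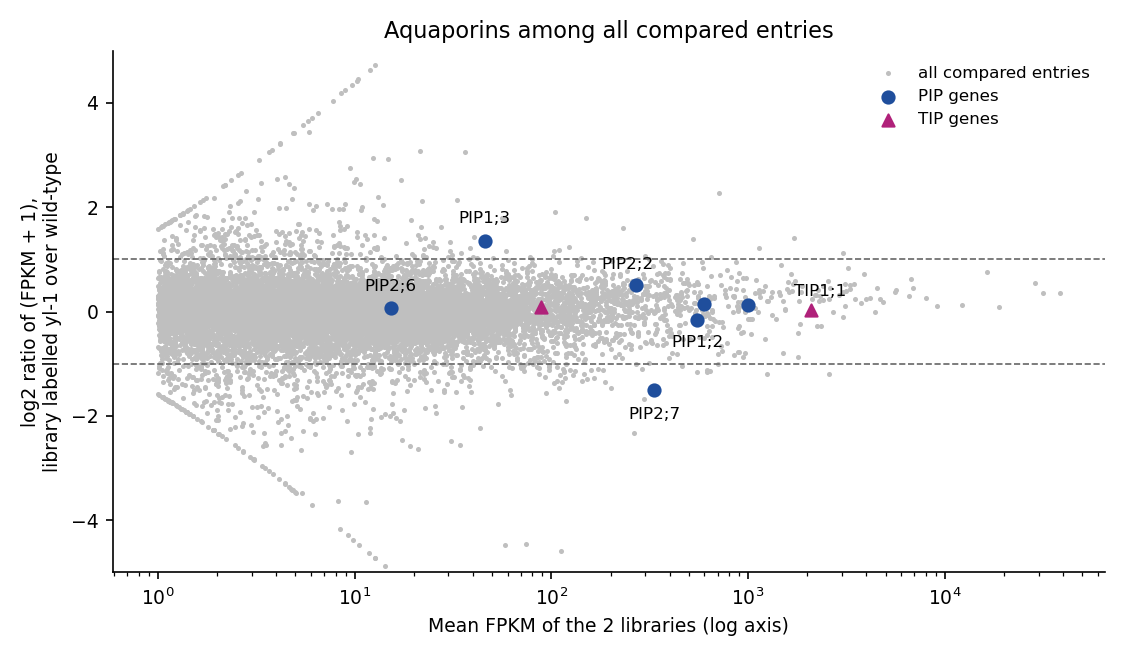
log2 ratio of (FPKM + 1), the yl-1-labelled library over the wild-type-labelled library, against the mean FPKM of both libraries on a log axis for the 14559 compared entries (grey), with PIP genes as circles and TIP genes as triangles, and 6 entries beyond the vertical axis not drawn. The genes at 1.35 and -1.50 lie outside the 2-fold lines and the other 7 aquaporins between them.

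A further 21 loci were taken as aquaporins from a general knowledge of locus names, and no source used here pairs these IDs with names. They comprise 4 PIP, 7 TIP, 8 NIP and 2 SIP loci. NIP proteins, a group that includes silicon channels in rice, and SIP proteins, small channels of internal membranes, are other branches of the family. Of the 21 loci, 12 were compared, 10 were higher and 2 lower in the *yl-1*-labelled library, and 0 passed 2-fold. Over all compared entries 51.7% were higher and 48.3% lower, and 2.5% and 3.65% passed 2-fold upward and downward. The median log2 ratio of the 12 loci was 0.27 as deposited and 0.14 with equal FPKM sums. All 4 compared NIP loci were higher, from 0.40 to 0.92, and stayed higher with equal sums, but 4 loci are too few to set beside the share of all entries.

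Of these loci, the strongest differences upward were in LOC_Os10g36924 of the NIP list and LOC_Os01g74450 of the TIP list. The NIP locus had 28.2 FPKM in the *yl-1*-labelled library and 14.5 FPKM in the wild-type-labelled library. The TIP locus, the most abundant of the 21, had 577 FPKM in the *yl-1*-labelled library and 346 FPKM in the wild-type-labelled library. The strongest downward were in LOC_Os03g20410 of the SIP list, with 7.56 FPKM in the *yl-1*-labelled library and 11.1 FPKM in the wild-type-labelled library, and LOC_Os05g14240 of the TIP list, with 5.51 FPKM in the *yl-1*-labelled library and 7.16 FPKM in the wild-type-labelled library.

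Proton pumps of the same membranes, also taken by ID from general knowledge, were set beside the channels. Over all compared entries, 51.7% were higher and 48.3% lower. Of 5 plasma membrane pump loci, 3 were compared, 1 higher and 2 lower. They ranged from -0.23 to 0.73, with a median of -0.11, or -0.25 with equal FPKM sums. Of 5 tonoplast pyrophosphatase loci, 2 were compared, 1 higher and 1 lower, at 0.058 and -0.14. Their median was -0.043, or -0.18 with equal sums. The 4 control loci had a median of 0.11 as deposited and -0.048 with equal FPKM sums. The 5 leaf genes, taken from the study's list of selected loci, all stood higher in the *yl-1*-labelled library. Their median was 0.33, or 0.17 with equal sums. That list marks all 5 as down-regulated, under headings opposite to the deposited names. Their common direction was therefore known beforehand and is no result, and not all photosynthesis loci on that list share it. Their part in the aquaporin differences was not tested.

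Aquaporins of 1 group resemble each other closely, and the sources used here do not say how fragments that fit several genes were divided. In the RefSeq gene order, PIP2;1 and PIP2;5 are direct neighbours with 0 genes between them. The levels of such genes are uncertain to the extent that they share reads.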

How the data were processed

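Leaf mRNA was sequenced from 1 library of *yl-1* and 1 of wild-type rice. The authors deposited FPKM values per gene, and the submitters' processing notes name TopHat, Cufflinks and Cuffdiff. The tool versions, the filters and the genome build with its annotation were not given in the sources used here. Columns were assigned by name, and 0 value columns were left unused. The number of fragments is unknown, which leaves counting error without an interval.

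The members and lists were chosen with earlier results of these data known. Names of the 10 members come with the fixed list, and all 10 are names in RefSeq (assembly ASM3414082v1), but 0 IDs of the table match it. No entry of the table was placed by RefSeq coordinates, and only the RefSeq names and gene order were used. All 10 members were named. Of the further aquaporin loci, counts, medians, ranges and 4 IDs (the 2 strongest each way) are given. Of the pumps, counts, medians and ranges are given, and of the control loci their count and medians. *YL-1* and *PsbO*, both on the study's list, are named to describe the libraries.

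Differences were computed as log2((FPKM + 1) ratio) for entries whose mean FPKM was 1 or more, a scale that understates differences of low genes, and those past 2-fold were counted. Alternatives were other pseudocounts, filters, thresholds and scalings, the mean, leaving out a gene and exchanged column names. Python 3.11.15, numpy 2.4.6, pandas 2.3.3 and matplotlib 3.10.9 were used.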

Additional observations from a re-analysis of the deposited data

How the results depend on the processing

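No paired analysis was possible because each genotype has a single library. PIP1;3 and PIP2;7 stayed past 2-fold under all pseudocounts, scalings and filters that were run, and neither passed a 4-fold threshold, which left 0 genes higher and 0 lower. With the column names exchanged, they are at -1.35 and 1.495. With equal FPKM sums, the median log2 ratio was -0.066 for the compared aquaporins, -0.028 for PIP1, -0.046 for PIP2 and -0.098 for TIP genes. Among entries past 2-fold, this took the share of higher ones to 29.6%, against 40.7% as deposited. Under the other scalings, the median of the compared aquaporins stayed above zero, from 0.073 to 0.107. As means, PIP1 genes were at 0.44 and PIP2 genes at -0.20. Leaving out 1 aquaporin gave medians of 0.079 to 0.11. Over all entries, 364 were higher and 531 lower past 2-fold. A pseudocount of 0.1 gave 586 higher, 0.01 gave 611 and 818, and 5 gave 104 and 191. A mean of at least 5 FPKM gave 154 and 268, a 1.5-fold threshold 1122 and 1393, and a 4-fold threshold 63 and 99. The cause was not tested. Without replicates or fragment totals, the error of any single ratio is unknown.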
